A study of Mus musculus with 4 samples.

Results

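Immunoglobulin transcripts were examined in bulk RNA sequencing of mouse lung with metastases of the breast cancer line 4T1, in 2 saline and 2 ADC/cmLumiOpto samples. The members were the genes annotated as immunoglobulin constant (C), variable (V), diversity (D) or joining (J) genes that had at least 10 raw counts summed over the 4 samples. Of 56748 genes in the count table, 264 carried one of these annotations (13 C, 218 V, 19 D and 14 J genes), and 32 were members, 10 constant genes and 22 V genes. D and J genes, which are very short, did not reach 10 counts. The minimum acts on the sum of all samples, so a gene can be a member through 1 sample. From saline sample 1 alone, 17 of the 22 V members reached 10 counts, and from both ADC/cmLumiOpto samples together 4 did, whereas all 10 constant members reached 10 counts in the ADC/cmLumiOpto samples. Counts over the V members therefore describe how they were chosen as well as the samples. Just inside the minimum lay Ighv9-2, Igkv4-68 and another kappa V gene with 11 counts each, and just outside it lay Igkv1-110, Igkv14-126 and Igkv4-59 with 9 counts each and the constant gene Iglc3 with 8.

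The mice were female BALB/cJ animals, injected at 7 weeks of age with 2000000 4T1-FLuc cells (a mouse triple-negative breast cancer line that expresses firefly luciferase) through the tail vein. The saline group is named PBS control in the treatment label. The ADC/cmLumiOpto group received CD276-DM1, an antibody against the surface protein CD276 that carries the microtubule inhibitor mertansine, together with cmLumiOpto, a gene therapy that uses light from the substrate ViviRen to open a channel in the mitochondria of cancer cells, for 3 weeks. The methods of the study give 8 mg/kg of ADC, 2 mg/kg of ViviRen, dissociated lung tissue and 4 samples per group. The labels give 16 mg/kg, add the abbreviation Olap to the treatment and describe tumor cells harvested from the lung, and the groups were kept as the labels name them. The ADC is given as an antibody protein, not as a gene.

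An antibody is built from paired heavy and light chains, and each chain joins a variable domain, which binds antigen, to a constant part, which in heavy chains sets the class. A B cell assembles the exon for the variable domain once, by joining a V gene to a J segment, with a D segment between them in heavy chains, and its progeny inherit that choice, so that a clone of antibody-secreting cells transcribes the same V gene. The heavy constant genes lie in the order Ighm, Ighd, the Ighg genes, Ighe and Igha. Naive B cells use Ighm and Ighd (IgM and IgD), and class switching replaces them by an Ighg gene (IgG) or Igha (IgA, the class of mucosal surfaces such as the airway). Plasma cells hold far more immunoglobulin mRNA than B cells do. In bulk RNA, fewer cells of a type and less RNA per cell cannot be told apart.

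The libraries held from 15263375 to 19675436 counts. CPM are counts per 1000000 counts of a library scaled by edgeR's TMM factors. The limit that a gene at 0 allows, 3 counts, is 0.152 to 0.197 CPM, taken from library totals without these factors. Limits and intervals cover counting error only, since reads without molecular identifiers are not independent molecules. Genes listed for lung epithelium and for carcinoma epithelium were present in all 4 samples. The sum of Sftpc, Sftpb, Scgb1a1 and Ager, genes of alveolar and airway epithelium, was 2443 CPM in saline 1, 347 CPM in saline 2, 10967 CPM in ADC/cmLumiOpto 1 and 7085 CPM in ADC/cmLumiOpto 2. It was lowest in saline 2 and higher in both ADC/cmLumiOpto samples than in both saline samples. The sum of Krt8, Krt18, Epcam, Krt7 and Krt14, listed for carcinoma epithelium but not specific to it, lay between 2498 and 3070 CPM. Its genes did not run alike. Krt8, Krt18 and Krt14 were lower and Krt7 higher in both ADC/cmLumiOpto samples, and Epcam overlapped, so the sum is no measure of tumor content. Saline 1 and saline 2 stood far apart in immunoglobulin transcripts, so every group value below is given with the value of each sample. The samples are listed as separate, no label ties same-numbered samples to an animal or a batch, and p-values measure the spread between these samples, which may be technical.

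Summed over the 10 constant members, transcripts were at 486.6 CPM in saline 1, 18.8 CPM in saline 2, 64.3 CPM in ADC/cmLumiOpto 1 and 31 CPM in ADC/cmLumiOpto 2. The V members summed to 172 CPM in saline 1, 4.25 CPM in saline 2, 4.08 CPM in ADC/cmLumiOpto 1 and 2.00 CPM in ADC/cmLumiOpto 2. Saline 1 was the highest sample for both classes, at 25.9 times the constant sum and 40.6 times the V sum of saline 2. For the constant genes, saline 2 lay below both ADC/cmLumiOpto samples, so the groups overlapped, and for the V genes it lay just above ADC/cmLumiOpto 1. The group means of the constant sum were 253 ± 331 CPM (SD, n = 2) for saline and 47.6 ± 23.5 CPM (SD, n = 2) for ADC/cmLumiOpto, a log2 ratio of -2.41 that became 1.34 without saline 1. The group means of the V sum were 88.4 ± 119 CPM (SD, n = 2) and 3.04 ± 1.47 CPM (SD, n = 2), a log2 ratio of -4.86 that became -0.48 without saline 1. The direction of the constant sum between the groups therefore rested on 1 library. All members together took 0.0655% of the counts of saline 1 and between 0.00224% and 0.00675% of those of the other 3 samples. Sums are given without a test, since the smallest two-sided p that exact permutation of 2 against 2 samples allows is 0.333.

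The concentration of immunoglobulin reads in saline 1 was rare in the table. Among the 18353 genes with at least 10 counts, 15 (0.0817%) had over 90% of their library-scaled counts in saline 1, and 13 of these were members, namely 12 V genes and Ighg2c. This is a description of the library, since the minimum of 10 counts favors V genes that were high in it.

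Heavy-chain constant genes are taken in the order of class. Ighm (ENSMUSG00000076617, chromosome 12), the heavy chain of IgM, was at 41.3 CPM in saline 1, 2.83 CPM in saline 2, 33.8 CPM in ADC/cmLumiOpto 1 and 13.1 CPM in ADC/cmLumiOpto 2. Saline 1 and both ADC/cmLumiOpto samples were high and saline 2 was low, and the groups overlapped, with a log2 fold change of 0.09 (SE 1.01, BH-adjusted p = 0.970, edgeR quasi-likelihood). Without saline 2 it was -0.81, and over all samples left out in turn it reached 3.04, the value without saline 1. Ighd (ENSMUSG00000104213), the IgD chain that naive B cells carry beside IgM, had 23, 11, 7 and 35 counts in saline 1, saline 2, ADC/cmLumiOpto 1 and ADC/cmLumiOpto 2. Both the highest and the lowest count of Ighd were in the treated group. For Ighm and Ighd the difference between the groups was thus smaller than the spread within them.

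Of the 4 Ighg members, Ighg2c (ENSMUSG00000076612, chromosome 12) was the most abundant in saline 1, with 1143 counts there, 19 in saline 2, 20 in ADC/cmLumiOpto 1 and 1 in ADC/cmLumiOpto 2. These are 71.5, 1.28, 1.13 and 0.0488 CPM, so the groups did not overlap, though saline 2 and ADC/cmLumiOpto 1 differed by 1 count in the opposite direction. Its log2 fold change was -5.99 (SE 1.86, BH-adjusted p = 0.144, edgeR quasi-likelihood), and it was -1.14 without saline 1. Ighg2c is the form of this gene in C57BL/6 mice, the strain of the reference genome, and BALB/c mice carry the related Ighg2a in its place, so that the counts are those of reads aligned to the reference form. Of the 50-base words of its transcript, 6.01% also occur in Ighg2b.

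In the other Ighg genes the samples of the groups were mixed. Ighg1 (ENSMUSG00000076614) had 45, 3, 50 and 48 counts in saline 1, saline 2, ADC/cmLumiOpto 1 and ADC/cmLumiOpto 2, near-equal in 3 samples and low in saline 2, with a log2 fold change of 0.76 (SE 0.93, BH-adjusted p = 0.651, edgeR quasi-likelihood). Ighg3 (ENSMUSG00000076615) had 34, 2, 12 and 16 counts in the same order. Ighg2b (ENSMUSG00000076613) had 26, 0, 20 and 5 counts. In all of these 3 genes saline 2 was the lowest sample.

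Igha (ENSMUSG00000095079, chromosome 12), the IgA heavy chain, was at 28.4 CPM in saline 1, 3.24 CPM in saline 2, 2.27 CPM in ADC/cmLumiOpto 1 and 1.17 CPM in ADC/cmLumiOpto 2. Both saline samples lay above both ADC/cmLumiOpto samples, but saline 2 was closer to the treated samples than to saline 1. The log2 fold change was -3.21 (SE 0.97, BH-adjusted p = 0.142, edgeR quasi-likelihood), and it was -0.93 without saline 1. Igha and Ighg2c were the 2 of 10 constant members whose groups did not overlap, both lower after ADC/cmLumiOpto, beside 28.8% of the 15320 genes tested that were separated in that direction.

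Light chains pair with every heavy chain class. Igkc (ENSMUSG00000076609, chromosome 6), the single kappa constant gene, had the most counts of any member, with 336 CPM in saline 1, 10.2 CPM in saline 2, 21.4 CPM in ADC/cmLumiOpto 1 and 10.3 CPM in ADC/cmLumiOpto 2. Saline 2 and ADC/cmLumiOpto 2 were lowest and near-equal, and ADC/cmLumiOpto 1 lay above both and far below saline 1. The log2 fold change was -3.45 (SE 1.34, BH-adjusted p = 0.194, edgeR quasi-likelihood) and turned to 0.61 without saline 1. The lambda constant genes Iglc1 (ENSMUSG00000105906, chromosome 16) and Iglc2 (ENSMUSG00000076937) were low, with 19, 0, 7 and 16 counts and with 6, 2, 4 and 11 counts. ADC/cmLumiOpto 2 and saline 1 held most of the lambda counts.

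**Figure D1:**
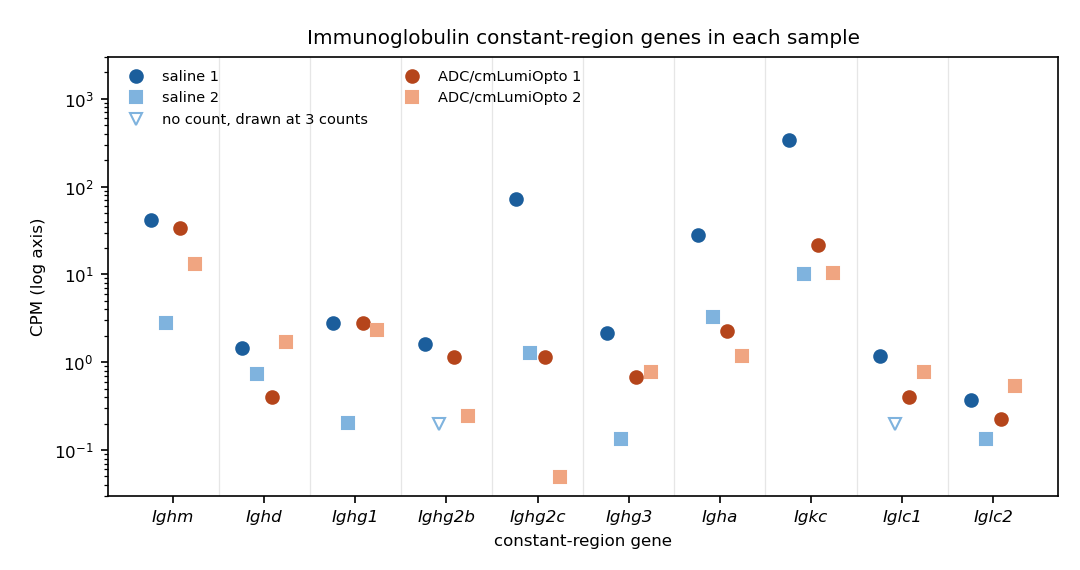
CPM (log axis) of the 10 constant-region genes in each of the 4 samples, with open triangles at the value of 3 counts where a gene had no count. Saline 1 is the highest sample for 7 of the 10 genes and saline 2 the lowest for 7, and only Ighg2c and Igha have both saline samples above both ADC/cmLumiOpto samples.

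Of the 10 constant members, 9 passed the expression filter (Iglc2 did not), and 0 of these had an adjusted p under 0.05 in edgeR's quasi-likelihood test, which called 0.0% of the 15320 genes tested. At an unadjusted p under 0.05 there were 3, Igkc, Igha and Ighg2c, all lower after ADC/cmLumiOpto, beside 12.2% of all genes tested that were lower at that level. DESeq2 called 0 of the 9, with no adjusted p for 4 of them, and 8.69% of all genes, and the edgeR exact test called 2 (Igha and Ighg2c) and 7.64% of all genes. Igkc, Igha and Ighg2c were called when the expression filter was dropped, as were 8.84% of the 25563 genes then tested, and also without saline 2, where 0.0613% of genes were called. Without saline 2, saline 1 is the only saline sample, so the calls in that setting restate its high counts. They are no support for a difference between the groups. The 0.0613% includes these 3 genes and V members, so it is no separate background for them. Without saline 1, the log2 fold changes were 0.61 for Igkc, -0.93 for Igha and -1.14 for Ighg2c. In the main fit, the median log2 fold change of the 9 was -0.27, beside 0.028 for all genes tested. The 9 genes divided into 3 with log2 fold changes of -3.21 or below and 6 between -0.63 and 0.76.

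Class composition was read within each sample, where the total amount of immunoglobulin cancels. By counts, Ighm made up 27.7% of the heavy constant reads in saline 1 (95% exact Clopper-Pearson interval 25.9 to 29.5%), 33.6% in saline 2 (25.4 to 42.6%), 80.0% in ADC/cmLumiOpto 1 (77.0 to 82.8%) and 67.6% in ADC/cmLumiOpto 2 (62.7 to 72.2%). The intervals of both saline samples lay below those of both ADC/cmLumiOpto samples, although saline 1 had 2386 heavy constant counts and saline 2 had 125. Unlike the summed levels, this share thus put saline 2 beside saline 1. Igha took 19.1% and 38.4% under saline and 5.36% and 6.03% after ADC/cmLumiOpto. Ighg2c took 47.9% in saline 1, 15.2% in saline 2 (9.41 to 22.7%), 2.68% in ADC/cmLumiOpto 1 and 0.251% in ADC/cmLumiOpto 2 (0.00636 to 1.39%). For both switched genes the saline samples were the higher ones. Ighg1 went the other way, with 1.89% and 2.40% under saline and 6.70% and 12.1% after ADC/cmLumiOpto, though the interval of saline 2 (0.498 to 6.85%) reached that of ADC/cmLumiOpto 1 (5.02 to 8.74%).

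The 4 Ighg genes together took 52.3%, 19.2%, 13.7% and 17.6% of the heavy constant counts in saline 1, saline 2, ADC/cmLumiOpto 1 and ADC/cmLumiOpto 2. The share of saline 2 could not be separated from the treated samples at its depth (interval 12.7 to 27.2%). Shares of 1 total are not independent, since a higher share of Ighm lowers the rest. Counted per 1000 bases of gene length, so that levels of different genes can be set side by side, Ighg2c led saline 1 with 60.1% before Ighm with 24.4%, whereas Ighm led the other 3 samples with 35.7% in saline 2, 82.9% in ADC/cmLumiOpto 1 and 72.2% in ADC/cmLumiOpto 2. Among the light constant counts, the lambda share was 0.463% in saline 1 (0.300 to 0.683%), 1.30% in saline 2 (0.158 to 4.61%), 2.84% in ADC/cmLumiOpto 1 (1.42 to 5.02%) and 11.3% in ADC/cmLumiOpto 2 (7.61 to 16.1%). ADC/cmLumiOpto 2 was above the other samples and saline 1 below both treated samples, while saline 2, with 154 light constant counts, could not be placed between saline 1 and ADC/cmLumiOpto 1.

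**Figure D2:**
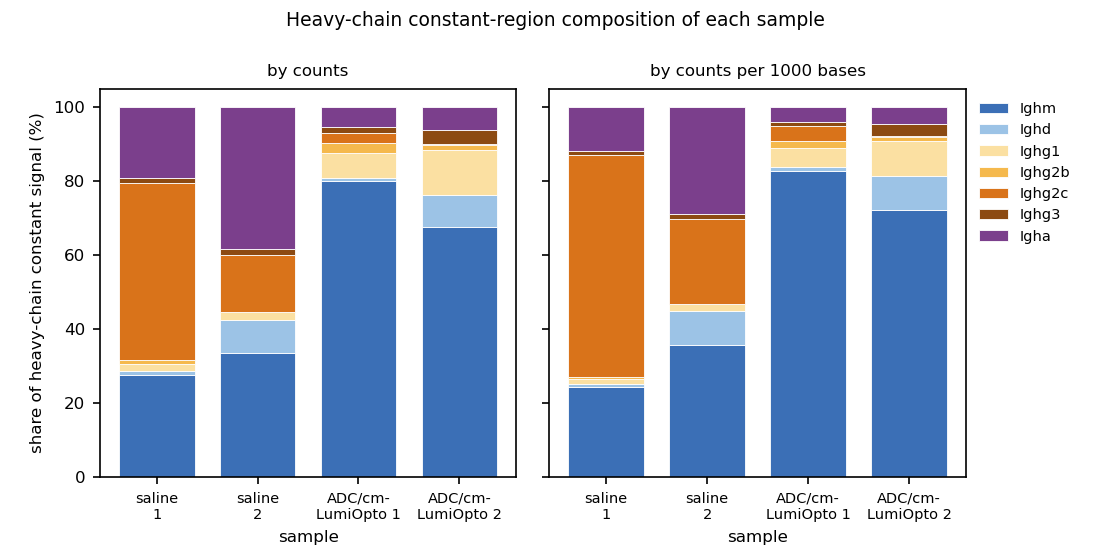
Share (%) of each heavy-chain constant gene in the heavy constant signal of each sample, by counts on the left and by counts per 1000 bases of gene length on the right. The Ighm segment fills 27.7% and 33.6% of the saline bars and 80.0% and 67.6% of the ADC/cmLumiOpto bars by counts, and Ighg2c and Igha fill most of the rest in saline.

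V genes show which variable domains the transcripts encoded. The V exons that carried the difference between the libraries are shown as the last 290 bases of each exon (the annotated exon is 298 to 310 bases long), from the transcripts of GENCODE M21 on GRCm38, matched by gene identifier, since all 32 members were found there. Capitals mark bases that differ from the most similar other V gene, and in the pair Ighv9-4 and Ighv9-3 they mark the bases that differ between these 2 genes. The reference is the C57BL/6 genome, so the alleles of BALB/cJ mice, and the mutations that B cells add to V genes, are not in these letters. The first 5 led saline 1 in the kappa and the heavy locus, Igkv4-57-1 led ADC/cmLumiOpto 1, and Iglv1 led ADC/cmLumiOpto 2.
Igkv10-96: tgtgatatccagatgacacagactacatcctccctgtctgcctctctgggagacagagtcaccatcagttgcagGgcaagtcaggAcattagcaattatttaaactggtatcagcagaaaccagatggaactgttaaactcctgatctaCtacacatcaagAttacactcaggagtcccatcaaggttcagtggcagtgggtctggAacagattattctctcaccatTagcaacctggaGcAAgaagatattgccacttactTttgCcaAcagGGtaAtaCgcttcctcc
Igkv4-74: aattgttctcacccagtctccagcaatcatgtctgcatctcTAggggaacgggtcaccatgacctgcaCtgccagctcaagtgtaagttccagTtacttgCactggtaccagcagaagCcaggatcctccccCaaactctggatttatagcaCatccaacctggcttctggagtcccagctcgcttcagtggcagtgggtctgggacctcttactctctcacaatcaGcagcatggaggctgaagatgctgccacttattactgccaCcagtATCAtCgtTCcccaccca
Igkv3-10: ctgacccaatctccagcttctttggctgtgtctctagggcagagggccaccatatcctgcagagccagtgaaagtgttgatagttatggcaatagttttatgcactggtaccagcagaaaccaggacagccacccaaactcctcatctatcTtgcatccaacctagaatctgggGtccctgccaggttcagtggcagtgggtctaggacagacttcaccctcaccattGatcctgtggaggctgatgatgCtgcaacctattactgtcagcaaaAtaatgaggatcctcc
Ighv9-4: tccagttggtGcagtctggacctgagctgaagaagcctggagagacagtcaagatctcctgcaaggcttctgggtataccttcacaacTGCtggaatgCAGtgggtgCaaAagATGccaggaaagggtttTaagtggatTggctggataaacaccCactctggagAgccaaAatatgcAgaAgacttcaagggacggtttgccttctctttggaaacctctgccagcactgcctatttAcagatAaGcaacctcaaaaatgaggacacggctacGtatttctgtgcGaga
Ighv9-3: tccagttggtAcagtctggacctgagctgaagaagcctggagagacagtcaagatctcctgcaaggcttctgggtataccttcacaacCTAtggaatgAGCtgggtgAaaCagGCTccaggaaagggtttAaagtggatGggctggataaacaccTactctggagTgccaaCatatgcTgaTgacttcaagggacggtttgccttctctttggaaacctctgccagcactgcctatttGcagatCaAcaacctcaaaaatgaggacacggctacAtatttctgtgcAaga
Igkv4-57-1: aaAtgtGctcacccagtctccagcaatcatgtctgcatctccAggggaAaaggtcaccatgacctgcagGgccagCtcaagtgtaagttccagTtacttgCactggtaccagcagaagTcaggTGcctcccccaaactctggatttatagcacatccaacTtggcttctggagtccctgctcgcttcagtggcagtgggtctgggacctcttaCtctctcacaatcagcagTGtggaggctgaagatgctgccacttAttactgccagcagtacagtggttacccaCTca
Iglv1: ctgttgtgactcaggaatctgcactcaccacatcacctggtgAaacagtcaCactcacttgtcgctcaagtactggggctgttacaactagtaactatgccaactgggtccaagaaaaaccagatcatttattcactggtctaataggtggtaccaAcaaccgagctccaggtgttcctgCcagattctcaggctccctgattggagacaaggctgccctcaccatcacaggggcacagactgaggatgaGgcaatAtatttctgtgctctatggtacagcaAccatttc

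On GRCm38 the stretches lie, in this order, at chr6:68631963-68632252 (minus strand), at chr6:69184826-69185115 (minus strand), at chr6:70572941-70573230 (plus strand), at chr12:114299961-114300250 (minus strand), at chr12:114140692-114140981 (minus strand), at chr6:69544359-69544648 (minus strand) and at chr16:19085017-19085306 (minus strand). Similarity sets how finely V genes can be told apart in counts. Over the whole exon, Igkv10-96 was 94.6% identical to Igkv10-94, its most similar V gene (16 differences), and Igkv3-10 was 98.1% identical to Igkv3-5 (6 differences). Across the 22 V members the identity to the most similar V gene ran from 78.9% to 98.1% with a median of 95%, and 18 of the 22 share a 50-base word with another immunoglobulin gene. Reads from such stretches could be assigned to a neighbor or dropped by the counting, so single V genes are uncertain. Reads that were dropped would be missing from sums over the locus as well, and their number was not tested.

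Among kappa V genes, Igkv10-96 (ENSMUSG00000094420) had 946 counts in saline 1, 13 in saline 2 and 0 in both ADC/cmLumiOpto samples. It was at 59.1 CPM in saline 1 and 0.876 CPM in saline 2. The saline mean was at least 187-fold higher than the value of 3 counts per library in the treated samples, taken without TMM factors. Saline 2 alone was at least 5.47-fold higher. Igkv4-74 (ENSMUSG00000076543) had 411, 15, 0 and 0 counts in saline 1, saline 2, ADC/cmLumiOpto 1 and ADC/cmLumiOpto 2, at least 83.3-fold higher in saline and at least 6.31-fold higher in saline 2 alone. Both genes were thus found in both saline samples and in neither treated sample. They were the 2 V members that passed the expression filter, and they passed it through the saline group alone, so that they had to differ and their tests are no support for a difference. Adjusted p was 0.134 for Igkv10-96 and 0.123 for Igkv4-74 in edgeR's quasi-likelihood test. DESeq2 called both, as it did 8.69% of all genes, and so did the edgeR exact test, with 7.64% of all genes.

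Igkv3-10 (ENSMUSG00000076596) had 418 counts in saline 1, 4 in saline 2, 0 in ADC/cmLumiOpto 1 and 1 in ADC/cmLumiOpto 2. Igkv3-1 (ENSMUSG00000095682) had 106, 0, 9 and 0 counts in the same order, and Igkv1-135 (ENSMUSG00000096336) had 59, 1, 5 and 7. In Igkv1-135 both treated samples held more counts than saline 2, and in Igkv3-1 ADC/cmLumiOpto 1 did. Igkv4-57-1 (ENSMUSG00000076555) was the V member whose counts were higher in both treated samples than in both saline samples, with 2, 0, 28 and 3 counts. Most of its counts were in ADC/cmLumiOpto 1, and in ADC/cmLumiOpto 2 it was 1 count above saline 1. Igkv4-57, named here after its values were seen, was the V member with no count in saline 1, and it had 15 counts in saline 2, 6 in ADC/cmLumiOpto 1 and 1 in ADC/cmLumiOpto 2.

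The 5 heavy-chain V members held nearly all of their counts in the saline group. Ighv9-4 (ENSMUSG00000094322) had 259, 3, 0 and 0 counts in saline 1, saline 2, ADC/cmLumiOpto 1 and ADC/cmLumiOpto 2, and Ighv9-3 (ENSMUSG00000096459) had 167, 4, 0 and 0. Their exons differ at 26 of 305 bases, the 24 capitals printed above among them, and both were present in both saline samples. Ighv5-4 (ENSMUSG00000095612) had 53, 1, 0 and 0 counts, Ighv7-1 (ENSMUSG00000076665) had 20, 1, 0 and 3, and Ighv9-2 (ENSMUSG00000094102) had 11 counts, all in saline 1. The 5 genes summed to 510 counts in saline 1, 9 in saline 2, 0 in ADC/cmLumiOpto 1 and 3 in ADC/cmLumiOpto 2. Over all 113 heavy V genes, without the minimum, the sums were 539, 27, 10 and 16 counts in the same order. The single lambda V member, Iglv1 (ENSMUSG00000076934), had 81 counts in saline 1, 2 in saline 2, 7 in ADC/cmLumiOpto 1 and 11 in ADC/cmLumiOpto 2. Iglv1 was, with Igkv1-135, a V member that had a count in all 4 samples.

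Of the 22 V members, 18 had their highest CPM in saline 1, and 21, 12, 8 and 9 had a count in saline 1, saline 2, ADC/cmLumiOpto 1 and ADC/cmLumiOpto 2. The groups did not overlap in 9 V members, 8 of them lower and 1 higher after ADC/cmLumiOpto, where 54.3% of the 18353 genes with at least 10 counts were separated, 4768 lower and 5197 higher. In 11 V members both treated samples were at 0. These 11 held 2012 counts in saline 1 and 40 in saline 2, or 72.9% and 63.5% of the V member counts of these samples, and 7 of the 11 had a count in saline 2. The other 11 held 747, 23, 72 and 41 counts in saline 1, saline 2, ADC/cmLumiOpto 1 and ADC/cmLumiOpto 2. The expression filter left 20 V members untested. Of the 2 tested, 0 had an adjusted p under 0.05 in edgeR's quasi-likelihood test and both had an unadjusted p under 0.05, beside 23.2% of all genes tested (12.2% lower), a count that the filter itself favors. The 9 kappa V members not described one by one had between 11 and 56 counts in total.

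**Figure D3:**
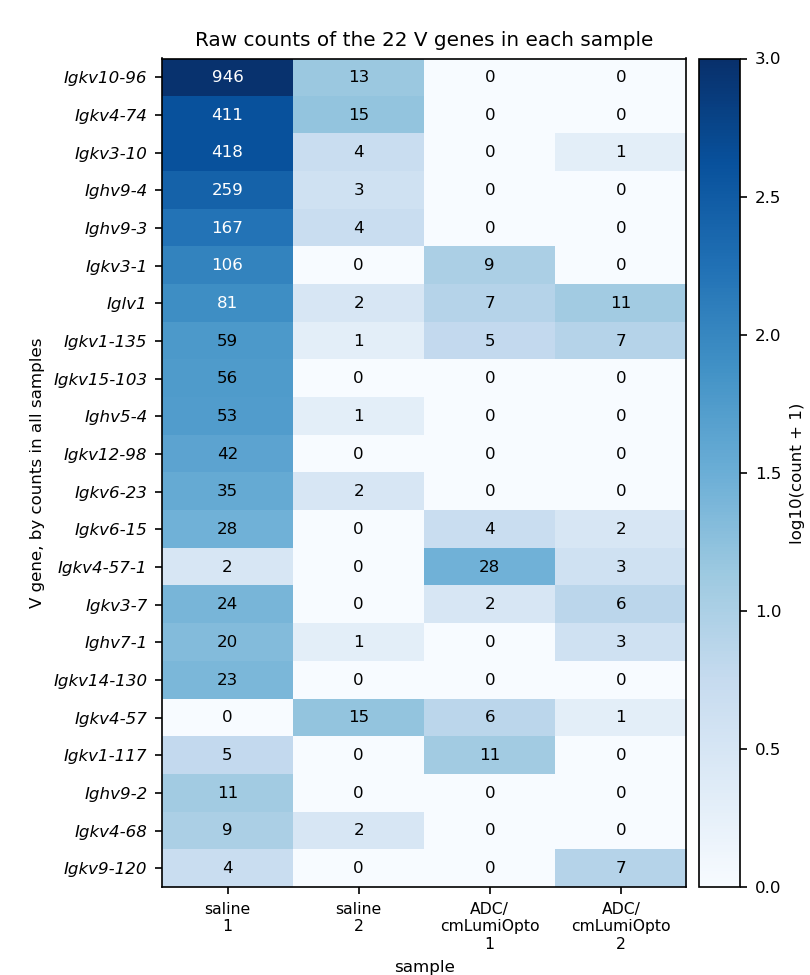
Raw counts of the 22 V genes (rows, by total) in each sample (columns), with the count printed in each cell and the color on a log10(count + 1) scale. The left column, saline 1, holds counts up to 946, and no other sample has a V gene above 28 counts.

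Use of V genes was also read within each sample, over all 218 V genes so that the minimum of 10 counts did not choose them. The samples held 2832, 100, 118 and 75 V counts from 57, 27, 29 and 26 V genes in saline 1, saline 2, ADC/cmLumiOpto 1 and ADC/cmLumiOpto 2. Because more counts find more genes, the number of V genes expected in 75 counts, the smallest total, was computed for each sample. It was 15 in saline 1, 24.6 in saline 2, 23.7 in ADC/cmLumiOpto 1 and 26 in ADC/cmLumiOpto 2. Saline 1 thus held more V genes in all and fewer at equal depth, and the other 3 samples were alike within 3 genes. The leading V gene was Igkv10-96 with 33.4% of V counts in saline 1 (31.7 to 35.2%). In saline 2 it was Igkv4-74 with 15% (8.65 to 23.5%), tied with Igkv4-57 at 15 counts each. Igkv4-57 had no count in saline 1. The leading gene was Igkv4-57-1 with 23.7% in ADC/cmLumiOpto 1 (16.4 to 32.4%) and Iglv1 with 14.7% in ADC/cmLumiOpto 2 (7.56 to 24.7%). No gene led in more than 1 sample. Over the V members alone, the leading shares were 34.3%, 23.8%, 38.9% and 26.8% in the same order. To reach 50% of the V counts took 3 genes in saline 1, 5 in saline 2, 5 in ADC/cmLumiOpto 1 and 6 in ADC/cmLumiOpto 2.

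The 10 leading V genes of saline 1 held 90.3% of its own V counts, 43.0% of those of saline 2 (33.1 to 53.3%), 17.8% of those of ADC/cmLumiOpto 1 (11.4 to 25.9%) and 25.3% of those of ADC/cmLumiOpto 2 (16.0 to 36.7%). They were chosen on saline 1, and among the other 3 samples saline 2 had the highest share, with an interval that overlapped that of ADC/cmLumiOpto 2. In the heavy locus the leading gene was Ighv9-4 in saline 1 (48.1% of 539 counts) and Ighv3-6 in ADC/cmLumiOpto 2 (4 of 16 counts). In saline 2, Ighv9-3 and Ighv5-9 were tied with 4 of 27 counts each. In ADC/cmLumiOpto 1, Ighv1-54 and Ighv2-9 were tied with 3 of 10 counts each. Set against the constant counts of the same locus, heavy V counts were 22.6 and 21.6 per 100 constant counts in saline 1 and saline 2 and 1.34 and 4.02 in ADC/cmLumiOpto 1 and ADC/cmLumiOpto 2. The kappa V counts were 41.1 and 46.7 per 100 Igkc counts under saline and 26.8 and 22.3 after ADC/cmLumiOpto. These 2 ratios were thus alike in the saline samples, whose totals were far apart, and lower in both treated samples. The lambda V counts were 340 and 100 per 100 lambda constant counts under saline and 53.8 and 36.4 after ADC/cmLumiOpto, not alike in the saline samples and resting on 2 constant counts in saline 2. V counts here are those assigned to reference V genes, and whether reads of other V alleles went uncounted was not tested.

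Genes that work with immunoglobulins were followed in lists chosen for their known roles. Jchain (ENSMUSG00000067149), which links IgA and IgM into polymers in antibody-secreting cells, was at 48.0 CPM in saline 1, 0.809 CPM in saline 2, 6.23 CPM in ADC/cmLumiOpto 1 and 1.02 CPM in ADC/cmLumiOpto 2. Like Igkc it was highest in saline 1, and saline 2 and ADC/cmLumiOpto 2 were the 2 lowest samples. Its log2 fold change was -2.77 (SE 1.52, BH-adjusted p = 0.314, edgeR quasi-likelihood) and turned to 2.14 without saline 1. Of the other defining plasma cell genes, Mzb1 had 6, 0, 0 and 2 counts in saline 1, saline 2, ADC/cmLumiOpto 1 and ADC/cmLumiOpto 2, and the receptor gene Tnfrsf17 was at 0 in all 4. Pou2af1, a B-lineage coactivator named here after its values were seen, had 53, 2, 13 and 28 counts. Sdc1, which epithelial cells also make, was at 237 to 354 CPM. In the plasma cell list 7 of 13 genes were highest in saline 1, 10 of 13 genes were tested and 0 called, 4 with a log2 fold change above 0 and 6 below. Its smallest p values were those of the secretory pathway genes Sec11c (log2 fold change 0.70) and Txndc5 (-0.46).

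Of the 14 B cell genes, 2 were highest in saline 1 and 10 lowest in saline 2. The share of all genes that were highest or lowest in a sample is not given, for this list, the others or the members. Cd79a and Cd79b encode the signaling chains of the B cell receptor. Cd79a was at 1.81 CPM in saline 1, 0.404 CPM in saline 2, 1.87 CPM in ADC/cmLumiOpto 1 and 2.15 CPM in ADC/cmLumiOpto 2. Cd79b was at 1.63, 0.876, 3.40 and 3.75 CPM in the same order, higher in both treated samples, with a log2 fold change of 1.51 (SE 0.48, BH-adjusted p = 0.151, edgeR quasi-likelihood). Ms4a1 (7, 0, 17 and 7 counts), which marks mature B cells, was at 0 in saline 2 and low elsewhere. In this list 8 genes were tested and 0 called, 7 with a log2 fold change above 0 and 1 below, with a median of 0.66 beside 0.028 for all genes tested. The summed B cell list was at 26.9, 17.9, 33.6 and 75.6 CPM, and 60.2 CPM of the last value was the tetraspanin gene Cd37.

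**Figure D4:**
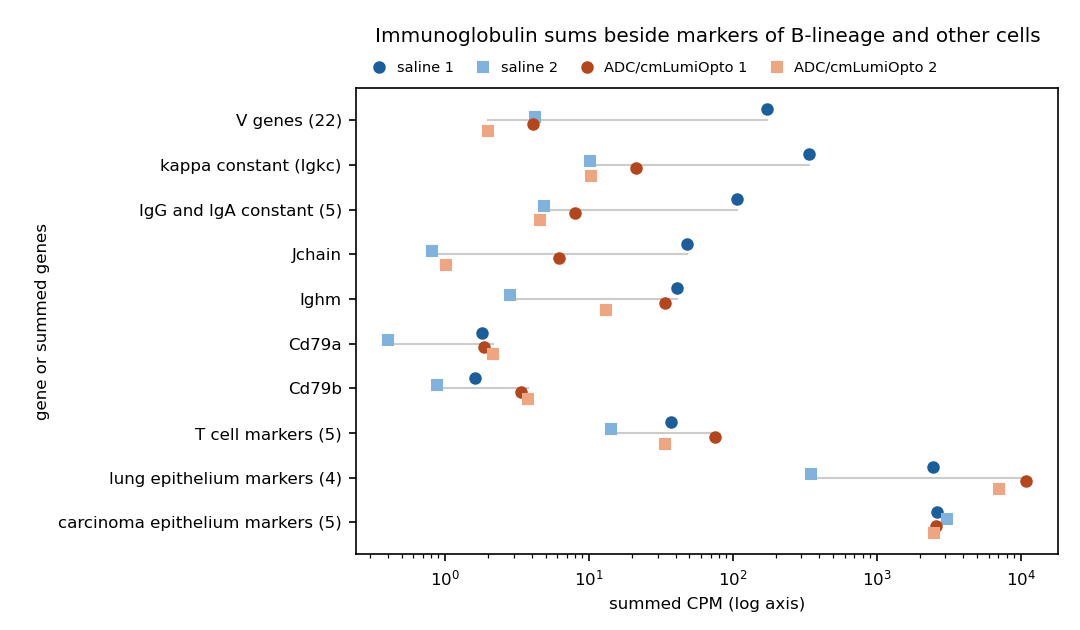
Summed CPM (log axis) of immunoglobulin classes and single genes beside sums of genes listed for T cells, lung epithelium and carcinoma epithelium. Each sample has 1 point, and a gray line runs from the lowest to the highest. Saline 1 stands far to the right for V genes, Igkc, the IgG and IgA genes and Jchain but not for Cd79a or Cd79b, and saline 2 is lowest for lung epithelium and T cell markers.

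B cell receptor signaling genes gave 0 calls among 16 tested, 14 with a log2 fold change above 0 and 2 below, and a median of 0.54. Among them were the kinase genes Syk (0.77), Lyn (0.38) and Btk (1.11) and the adaptor gene Blnk (1.60). Many of these genes are also used by myeloid cells. In the list for early B cells and class switching, 2 of 9 genes were tested and 0 called, Vpreb3 with a log2 fold change of 2.14 and the repair enzyme gene Ung with -0.18. The recombinase genes Rag1 and Rag2, which join the gene segments, had at most 2 counts in any sample, under the limit of 3 counts at this depth.

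Among receptors and transporters of antibodies, Pigr (ENSMUSG00000026417), the epithelial receptor that carries polymeric IgA and IgM into the airway, was at 3.44 CPM in saline 1, 0.741 CPM in saline 2, 18.3 CPM in ADC/cmLumiOpto 1 and 9.66 CPM in ADC/cmLumiOpto 2. It was higher in both treated samples, opposite to Igha, with a log2 fold change of 2.73 (SE 0.68, BH-adjusted p = 0.123, edgeR quasi-likelihood). The lung epithelium markers ran the same way, and their part in this difference was not tested. The neonatal Fc receptor gene Fcgrt had a log2 fold change of 0.24, the inhibitory receptor gene Fcgr2b of 0.22 and the IgM receptor gene Fcmr of 2.23 (4, 1, 12 and 18 counts). In this list 9 of 11 genes were tested and 0 called, 8 with a log2 fold change above 0 and 1 below, with a median of 0.36.

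Signals that attract B cells or keep them alive gave 0 calls among 8 tested of 12, and all 8 had log2 fold changes above 0, with a median of 0.77. They included the chemokine gene Cxcl13 (0.64), the survival factor genes Tnfsf13b (0.67) and Tnfsf13 (0.71), the costimulatory receptor gene Cd40 (0.83) and Ltb (2.19), which encodes a chain of lymphotoxin. Of the 12 genes, 9 were lowest in saline 2. All 5 T cell markers were lowest in saline 2 as well, with a summed level of 37.1, 14.2, 74.8 and 33.6 CPM in saline 1, saline 2, ADC/cmLumiOpto 1 and ADC/cmLumiOpto 2, and 0 of the 5 were called. Low lymphoid and low lung epithelial markers thus came together in saline 2, the sample in which 7 of the 10 constant genes were lowest, and their part in the immunoglobulin values was not tested. At an unadjusted p under 0.05 in edgeR's quasi-likelihood test, there were 2 of 8 tested B cell genes and, in each direction, 2 of 10 plasma cell genes. There were also 4 of 16 signaling genes, 2 of 9 Fc receptor or transport genes, 1 of 8 attraction or survival genes and 2 of 5 T cell genes. Apart from 2 of the plasma cell genes these were higher after ADC/cmLumiOpto, beside 11.0% of all genes tested that were higher at that level. All 4 lung epithelium genes were higher at that level too. In the carcinoma epithelium list 1 of 5 genes was lower, beside 12.2% of all genes tested.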

How the data were processed

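Messenger RNA from 2 saline and 2 ADC/cmLumiOpto samples was sequenced on an Illumina HiSeq platform. The authors deposited raw counts of reads for 56748 genes, as whole numbers and not normalized. The methods of the study name HISAT2 and GRCm38, the labels list HISAT2 and mm39, and the counting program and its strand setting are not given in the sources used here, so positions listed with the counts are not printed. Samples were grouped by their titles.

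The analysis used edgeR 4.0.16 under R 4.3.3. The default filterByExpr left 15320 genes, which were scaled by TMM and compared by glmQLFit and glmQLFTest with Benjamini-Hochberg adjustment over all of them, with a threshold of 0.05. CPM is the count per 1000000 counts of the TMM-scaled library, and log2 fold changes are ADC/cmLumiOpto over saline with a prior count of 0.125. Alternatives were DESeq2 1.42.0, library size, upper-quartile normalization, the edgeR exact test, other filters, a replicate block and each sample left out. Shares have exact Clopper-Pearson intervals at the 95% level. The number of V genes in 75 counts is the hypergeometric expectation.

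The members and gene lists were chosen with earlier results of these data known. All constant members were named, and of the V genes those of highest mean CPM per locus (5 heavy, 5 kappa, lambda), the leading gene of each locus in each sample, and tested genes of smallest p. From each list, the first 3 genes and the 2 of smallest p were named, except that 2 list genes are not reported. The tests were tried on simulated data with known changes and the same spread for every gene. That trial does not cover genes as uneven between the saline samples as the members.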

Additional observations from a re-analysis of the deposited data

How the results depend on the processing

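At the threshold of 0.05, 0 of 15320 genes were called, and DESeq2 gave 1332, the exact test of edgeR 1170, dropping the filter 2259 and the replicate block 607. Leaving out each sample gave between 0 and 218. For the constant genes (0 called) the exact test gave 2, no filter 3 and the block 2. For the V genes (0 called) DESeq2 gave 2, the exact test 2, no filter 14 of 22 (13 lower, 1 higher), the block 2, and samples left out between 0 and 5, the last without saline 2. The companion lists (0 called) gave 10, 9, 23 and 9 with DESeq2, the exact test, no filter and the block, and between 0 and 8 with samples left out, the last without saline 1. Same-numbered samples deviated from their group means with a correlation of 0.0985 over genes. Whether they share an animal or a batch is not given by the labels and was not tested. A filter of 10 counts in every sample kept 3 constant genes and 0 V genes. The V calls without a filter also reflect how the V members were chosen. From saline 1 alone 17 of the 22 reached the minimum of 10 counts, and from both ADC/cmLumiOpto samples together 4 did. The 13 lower calls are thus no support for a difference between the groups. Over all genes, 8.84% of 25563 were called without a filter and 607 of 15320 with the block. Without saline 2, the V calls rest on saline 1 as the only saline sample. The cause of these differences between settings was not tested.

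The log2 ratio of the constant sums (-2.41) ranged from -3.35 to 1.34 with samples left out, reversed without saline 1, and that of the V sums (-4.86) from -5.83 to -0.48. The V ratio was -4.15 with a minimum of 1 count and -6.26 with 50. The mean share of the leading V member in the ADC/cmLumiOpto samples (32.9%) was 19.2% with a minimum of 1 count and 50.4% with 50. Signs near 0 turned: Ighd to 0.021 by library size and 0.033 by upper quartile, Iglc1 to 0.023, 0.054 and, with the block, 0.44, and Ighg2b to 0.27 with the block. With samples left out, log2 fold changes that turned ranged from -1.45 to 0.64 (Ighd), -0.12 to 3.62 (Ighg1), -1.72 to 6.6 (Ighg2b), -1.53 to 2.37 (Ighg3), -0.81 to 3.04 (Ighm), -4.40 to 0.61 (Igkc), -0.99 to 6.40 (Iglc1), -4.57 to 2.14 (Jchain), -0.012 to 0.49 (Fcgr2b), -0.23 to 1.68 (Cd3e) and -0.23 to 0.49 (Epcam). Of 333 pairs of a named gene and another setting, 271 kept direction and side of the threshold, 56 passed it and 6 reversed. DESeq2 gave no adjusted p for Ighd, Ighg2b, Ighg3 and Iglc1.

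With at most 15 counts of any V gene in saline 2, single V genes cannot be ranked there, and 11 V members at 0 in the treated samples are limited to about 3 counts per library.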

Other observations

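Below the minimum of 10 counts, 62 of 196 V genes had a count, 190 in all, with 73 in saline 1, 37 in saline 2, 46 in ADC/cmLumiOpto 1 and 34 in ADC/cmLumiOpto 2. Of the constant genes below the minimum, Iglc3 had 0, 0, 2 and 6 counts in the same order, and Ighe, the IgE heavy chain, had 4 counts, all in saline 1. The J segments held 13 counts in all (6, 1, 0 and 6), the D segments 0, and 158 V pseudogenes 3. Of the genes for surrogate light chains, which pre-B cells use before a light chain is made, Igll1 and Vpreb2 were at 0 in all samples and Vpreb1 had 2, 3, 7 and 5 counts in saline 1, saline 2, ADC/cmLumiOpto 1 and ADC/cmLumiOpto 2.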
